A study of Mus musculus with 4 samples.

Results

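The genes described here are the long intergenic noncoding RNA (lincRNA) genes among those deposited as different between Go6983-treated and untreated mouse embryonic stem cells (mESCs). They were chosen by annotation: every gene of the deposited table whose gene ID carries the gene type lincRNA in GENCODE release M21. By this rule 108 of the 1577 listed genes were members, beside 1201 protein-coding genes. Total RNA came from 46C cells, an ESC line known to carry a green fluorescent reporter at *Sox1*, kept in serum-containing medium. Treated cells received 5 μM Go6983, a selective inhibitor of pan-PKC (the protein kinase C isoforms), for 24 h (2 samples). NT cells were kept for the same 24 h in control medium without the inhibitor (2 samples). Whether the 2 samples of a group came from separate cultures is not said, so p-values measure only the spread between these samples.

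lincRNAs are long transcripts without an evident open reading frame, made from genes that lie between protein-coding genes. Many are capped, spliced and polyadenylated like mRNAs, and as a class they are shorter, less abundant and more restricted to particular cell types than mRNAs. Some act in the nucleus on genes close to their own site of transcription, some act elsewhere in the cell, some are the precursors of microRNAs (miRNAs), and for most no role is known. In mESCs, lincRNAs have been linked both to the upkeep of pluripotency and to its loss.

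The values were log2(normalized count + 1) per sample. When the log2 and the added 1 were undone, all values were whole multiples of 1 step per sample, so read numbers could be recovered. Reads in the listed genes ranged from 859777 to 1054236 per sample, and the total depth of each library is unknown. The table holds only genes that had been selected as changed: the group means of every listed gene differed by at least 1.00 on the log2 scale, which is 2-fold. A count of higher or lower lincRNA genes is therefore a description of a selected list, and is read beside the same count over all 1577 listed genes. Because the variance was estimated on genes selected in the same samples, the limma p-values may be too small. Of 9 ESC marker genes, *Tfcp2l1*, *Nanog*, *Klf4* and *Utf1* were in the table, each with 6796 or more normalized counts in every sample. Of 14 markers of other cells, *Col1a2*, a fibroblast collagen, and *Pax6*, a neural transcription factor, were listed. They had 23.5 to 82.4 normalized counts per sample, with log2 fold changes of 1.13 and -1.39. Their part in the lincRNA values was not tested. In a bulk sample, fewer cells of a type and less RNA per cell cannot be told apart.

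Most listed lincRNA genes were higher in Go6983-treated mESCs, in nearly the proportion seen for the whole table. At a limma adjusted p below 0.05, 69 lincRNA genes (63.9%) were higher and 37 (34.3%) were lower. Over all listed genes, 68.8% were called higher and 29.7% lower. The 2 lincRNA genes that did not pass were *Gm15834* (log2 fold change 1.01, adjusted p = 0.0552) and *Gm26870* (log2 fold change -1.26, adjusted p = 0.0965). The 2 Go6983 samples lay above both NT samples for 70 lincRNA genes and below both for 37, against 69.6% and 30.1% of all listed genes. Either way, 107 members had groups that did not overlap, as did 99.7% of all listed genes. *Gm26870* was the member whose groups overlapped, with 36.4 and 15.0 normalized counts in Go6983-treated cells and 34.8 and 95.0 in NT cells. It shares exon bases with 6 other annotated genes.

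The size of the change was larger for lincRNA genes than for coding genes of the table, and so was its error. The median absolute log2 fold change was 1.71 for the lincRNA genes, 1.40 for the listed coding genes and 1.45 for all listed genes. Among members that were higher the median was 1.70, and among those that were lower it was -1.71. A change of at least 4-fold was called for 27 lincRNA genes upward (25%) and 14 downward (13%), while 13.9% and 7.67% of all listed genes were so called. Of the 27, 16 had no read in either NT sample, and of the 14, 7 had no read in either Go6983 sample. The fitted log2 fold changes of such genes depend on the 1 added to the counts. The median standard error of the log2 fold change was 0.37 for lincRNA genes and 0.27 for coding genes. Low read numbers moved with both measures, since 70 of the 108 lincRNA genes (64.8%) had a mean under 50 normalized counts in their higher group, against 24.6% of the listed coding genes. The part of read depth in the size of the changes was not tested, and the differences between gene types given here are descriptions without a test.

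The listed lincRNA genes were of low abundance per length of exon. Over the 4 samples, the median lincRNA gene had 13.6 normalized counts per kb of exon, with an interquartile range of 6.64 to 33.0, and the median coding gene had 26.1, with an interquartile range of 9.06 to 86.4. In the single samples, the lincRNA median was 16.9 and 15.9 per kb in Go6983-treated cells and 10.5 and 11.4 per kb in NT cells. The corresponding coding medians were 28.0 and 28.0 in Go6983-treated cells and 17.4 and 18.1 in NT cells. lincRNA genes had a median exon length of 1882 bp and a median of 3 exons in the longest transcript, compared with 3946 bp and 8 exons for coding genes, and 11 members had a single exon. Among members, the level per kb spanned from 0.845 for *4933440M02Rik* to 1070 for *Gm40849*.

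**Figure D1:**
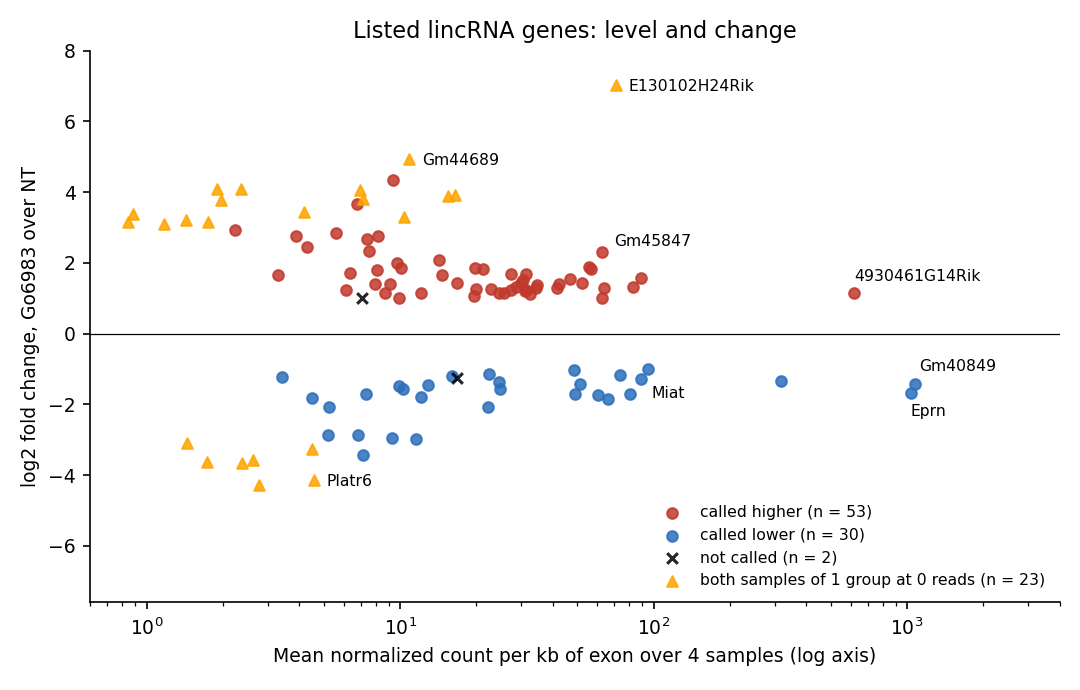
Mean normalized count per kb of exon over the 4 samples (x axis, log scale) against the limma log2 fold change of Go6983 over NT (y axis) for the 108 lincRNA genes; red and blue circles are genes called higher or lower, crosses are the 2 genes not called, and triangles are the 23 genes with no read in both samples of 1 group. *Eprn* and *Gm40849*, at 1032 and 1070 counts per kb, lie on the lower side, and *E130102H24Rik* has the largest log2 fold change, 7.03.

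Although more members were higher than lower, lincRNA reads made up a slightly smaller part of the listed counts after treatment. Members took 0.759% and 0.707% of the listed normalized counts in Go6983-treated cells and 0.838% and 0.867% in NT cells. The 3 members with the highest mean count, *Eprn*, *Miat* and *Gm40849*, were all lower with Go6983. These 3 genes held 21.1% and 19.5% of the lincRNA counts in Go6983-treated cells, and 54.7% and 53.7% in NT cells. Without them, the lincRNA counts summed to 5897 and 5649 in Go6983-treated cells and to 3510 and 3524 in NT cells, so the remaining 105 genes together were higher in both Go6983 samples.

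*Eprn* (ephemeron, ENSMUSG00000113346, chr13:73344665-73347384 on GRCm38, minus strand, 3 exons) is a lincRNA described in mESCs that leave the naive state. It had 687 and 589.8 normalized counts in Go6983-treated cells, against 2203 and 1914 in NT cells. The Go6983 samples were both far below the NT samples, with a log2 fold change of -1.69 (standard error 0.13, adjusted p = 0.000428). *Gm40849* (chr12:19044706-19055179, plus strand), an unnamed gene model, had 352 and 352 normalized counts in Go6983-treated cells and 933 and 943 in NT cells. Its replicates were almost identical within each group and the groups were well apart (log2 fold change -1.41, standard error 0.11, adjusted p = 0.000428). *Miat* (Gomafu, chr5:112213228-112229395, minus strand, 7 exons) encodes a nuclear-retained RNA known from neurons. It had 538 and 428 normalized counts in Go6983-treated cells, against 1105 and 1231 in NT cells. Both Go6983 samples were below both NT samples (log2 fold change -1.28, standard error 0.15, adjusted p = 0.000769). The calls of *Eprn*, *Gm40849* and *Miat* held when any 1 library was left out, at adjusted p-values from 0.0113 to 0.0263. At *Miat* the count could include reads of other annotated genes, since 5 short gene models share its exon bases.

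The promoters of the lincRNA genes whose change was largest in size or in counts differed widely in CpG content. RefSeq (GRCm38.p6) held a promoter window, 300 bases around the start and mostly upstream of it, for 52 of the 108 members. A contrasting pair of windows is shown, *E130102H24Rik*, the gene with the largest change, and *Eprn*, the most abundant member by counts, 5′ to 3′ on the strand of the gene, with each CpG in capitals. The first lies at chr4:101356199-101356498 and the second at chr13:73347335-73347634, both on the minus strand.
E130102H24Rik: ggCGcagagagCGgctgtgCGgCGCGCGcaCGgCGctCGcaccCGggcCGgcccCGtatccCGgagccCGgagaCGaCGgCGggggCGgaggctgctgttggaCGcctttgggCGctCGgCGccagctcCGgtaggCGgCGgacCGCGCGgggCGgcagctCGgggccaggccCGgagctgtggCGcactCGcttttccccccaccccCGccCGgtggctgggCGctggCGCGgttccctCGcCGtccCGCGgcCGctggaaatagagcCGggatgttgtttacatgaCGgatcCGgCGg
Eprn: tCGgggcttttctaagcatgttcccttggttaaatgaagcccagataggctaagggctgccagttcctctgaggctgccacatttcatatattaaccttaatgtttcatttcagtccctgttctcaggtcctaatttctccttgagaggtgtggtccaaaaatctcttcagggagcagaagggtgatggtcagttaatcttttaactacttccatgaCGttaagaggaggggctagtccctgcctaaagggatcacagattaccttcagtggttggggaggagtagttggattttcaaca
The *E130102H24Rik* window held 47 CpG, the most of the 52 members, and the *Eprn* window held 2. The RefSeq start of *E130102H24Rik* is 487 bp inside the GENCODE one. For 11 of the 52 members the starts were more than 1000 bp apart, up to 54967 bp for *Gm31718*, so these windows need not belong to the annotated lincRNA. For comparison, the window of *Miat* held 25 CpG and that of *Tbx3os2* held 12. Across the 52 windows the median was 6 CpG (range 0 to 47), against 7 over all 32851 RefSeq promoters of the same length. At least 20 CpG were found in 9 member windows (17.3%) and in 26.5% of all promoters. The letters TGANTCA are a looser form of the core of the AP-1 motif, since any base was allowed in the middle. The pattern is its own reverse complement and so covers both strands. It was in 5 member windows (9.62%) and in 7.81% of all promoters. In the 41 windows within 1000 bp of the GENCODE start, a limit set after the offsets were seen, the median was 6 CpG, with at least 20 CpG in 8 (19.5%) and TGANTCA in 4 (9.76%). By direction, windows with at least 20 CpG numbered 6 of 33 for genes called higher and 2 of 18 for genes called lower. Windows with TGANTCA numbered 4 of the 33 and 1 of the 18. These are matches of letters and no evidence of binding.

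Among members whose higher group averaged 50 or more normalized counts, 37 of 38 were called, 23 of them higher (60.5%) and 14 lower (36.8%). Over all 1044 listed genes at this level, 67.9% were called higher and 30.8% lower. *9330102E08Rik* (chr6:128169704-128183803) had 372 and 308 normalized counts in Go6983-treated cells, against 106 and 83.8 in NT cells. Every Go6983 value was more than the NT values, with a log2 fold change of 1.83 (standard error 0.20, adjusted p = 0.000619), and the call held without any 1 library. *Gm45847* (chr7:123031415-123068305) had 213 and 215 normalized counts in Go6983-treated cells, against 33.8 and 53.1 in NT cells. The groups were far apart (log2 fold change 2.31, standard error 0.27, adjusted p = 0.000822), though without Go6983 replicate 1 or 2 the adjusted p was 0.0522 and 0.0559. *4930461G14Rik* (chr9:58455122-58469635), the third most abundant member per kb at 618 counts per kb, had 706 and 724 normalized counts in Go6983-treated cells and 285 and 369 in NT cells. Both Go6983 samples were higher (log2 fold change 1.14, standard error 0.16, adjusted p = 0.00139). Without Go6983 replicate 1 or 2 its adjusted p was 0.0538 and 0.0597.

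**Figure D2:**
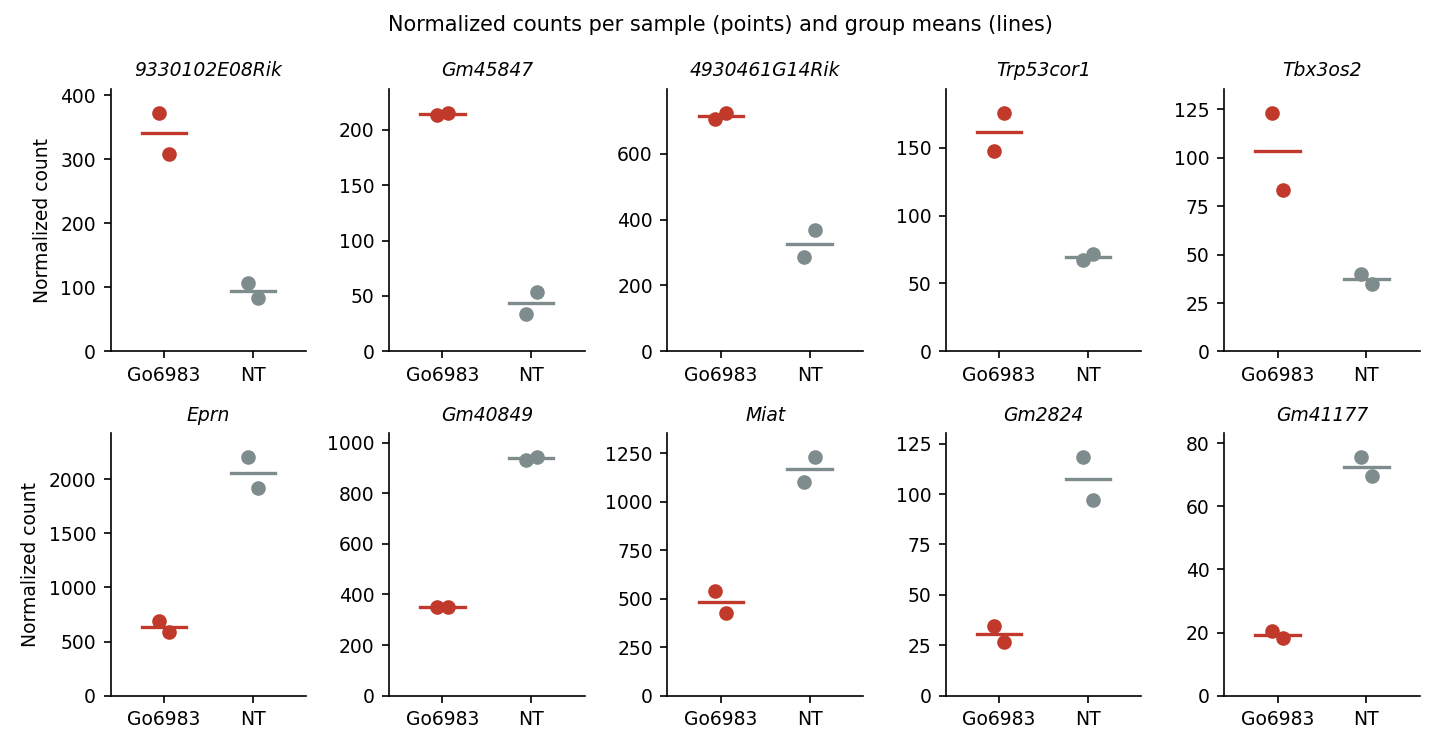
Normalized counts (y axis, linear from 0) of 10 lincRNA genes in the 2 Go6983 and the 2 NT samples; points are samples and lines are group means. The top row holds genes that were higher with Go6983, such as *4930461G14Rik* at 706 and 724 against 285 and 369, and the bottom row genes that were lower, such as *Eprn* at 687 and 589.8 against 2203 and 1914.

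Other large rises at this level of counts were those of *Gm47113* (2.45 on the log2 scale), *Gm26711* (1.89), *5930412G12Rik* (1.83), *Gm10062* (1.69) and *C030034I22Rik* (1.67). Each had lower NT than Go6983 values in every sample, and each lost its call when a library was left out. Without Go6983 replicate 2 the adjusted p of *Gm47113* was 0.0538. Without Go6983 replicate 1 or 2 it was 0.0971 and 0.0812 for *Gm26711*, 0.157 and 0.158 for *5930412G12Rik*, and 0.139 and 0.113 for *Gm10062*. The log2 fold change of *5930412G12Rik* was 1.18 without NT replicate 1. For *C030034I22Rik*, whose adjusted p was 0.0466, the NT samples were far apart at 54.7 and 13.3 normalized counts. Its adjusted p was 0.332 and 0.248 without Go6983 replicate 1 or 2, and 0.125 without NT replicate 2. Leaving out NT replicate 1 gave a log2 fold change of 2.65, and leaving out NT replicate 2 gave 0.69. The call was also lost with another scaling (0.0515), with 0.1 or 0.01 added in place of 1 (0.0679 and 0.0811) and without the trend (0.0842). *Gm26711* shares exon bases with *Fbrsl1* on the opposite strand, and reads of the pair cannot be told apart because no strand setting is stated.

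Among the falls, *Gm41177* had 20.5 and 18.2 normalized counts in Go6983-treated cells, against 75.6 and 69.5 in NT cells. *Gm2824* had 34.5 and 26.8 in Go6983-treated cells, against 118 and 97.1 in NT cells. Both genes had closely matching replicates and groups that were far apart, with log2 fold changes of -1.85 and -1.78 (standard errors 0.30 and 0.28). Without Go6983 replicate 2 their adjusted p-values were 0.0557 and 0.0517, against 0.00251 and 0.00236 with all samples. *1700063H04Rik* and *Gm26644* had log2 fold changes of -1.70 and -1.58 and kept their calls without any 1 library. *Gm14133* had a log2 fold change of -2.07, with unequal Go6983 samples, at 7 and 18 reads, against 52 and 49 reads in NT cells. Its adjusted p of 0.0128 became 0.0849, 0.106 and 0.102 without Go6983 replicate 1, NT replicate 1 or NT replicate 2, and its log2 fold change was -1.36 without Go6983 replicate 1. *1700057H21Rik* had a log2 fold change of -1.71, and its adjusted p of 0.00785 became 0.0776, 0.105 and 0.0585 without Go6983 replicate 1, Go6983 replicate 2 or NT replicate 1. Of the 5 members most abundant per kb, the other two were short models. *Gm28625* (205 bp of exon) had 319 counts per kb and a log2 fold change of -1.35, and *4930517L18Rik* (482 bp) had 94.6 counts per kb, with 37 and 24 reads in Go6983-treated cells against 54 and 67 in NT cells. The call of *Gm28625* was lost without Go6983 replicate 1, Go6983 replicate 2 or NT replicate 2 (adjusted p = 0.102, 0.117 and 0.0620). That of *4930517L18Rik*, which lies within coding gene bodies on the same strand, was lost without each of the 4 libraries, at adjusted p-values from 0.0740 to 0.170.

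A pattern found more often among lincRNA genes than among coding genes of the table was the absence of any read in both samples of 1 group. This held for 23 members (21.3%), compared with 4.83% of coding genes and 7.10% of all listed genes. Low counts moved with it: among genes with a mean under 50 normalized counts in the higher group it held for 22 of 70 lincRNA genes (31.4%) and 57 of 296 coding genes (19.3%). A mean under 10 in the higher group was found for 8 of the 70 lincRNA genes and 21 of the 296 coding genes. All listed genes had been selected for a change of at least 2-fold in these same samples. The part of that selection in this pattern was not tested. In 16 members both NT samples were at 0 and in 7 both Go6983 samples were at 0. At this depth, 3 reads over a group correspond to 1.50 normalized counts in Go6983-treated cells and 1.51 in NT cells, and folds against a group at 0 are lower bounds at that floor. They allow for counting error in the group at 0 only, and take the mean of the other group as exact. Where that other group has few reads, the true fold could be smaller than the stated bound. The fitted log2 fold changes of these genes depend on the added 1.

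The gene with the strongest all-or-none pattern was *E130102H24Rik* (ENSMUSG00000086782, chr4:101346531-101356735, minus strand, 2 exons). It had 141 and 120 reads in Go6983-treated cells, or 132 and 128 normalized counts, against 0 and 0 reads in NT cells. The groups did not overlap and the level was at least 86.0-fold higher in Go6983-treated cells. Its fitted log2 fold change of 7.03 (standard error 0.36, adjusted p = 0.000375) was the largest of the 108 members. The next 4 genes that were at 0 in NT cells had far fewer reads. *Gm44689* had 34 and 26 reads in Go6983-treated cells (at least 19.7-fold higher). *Gm42787* had 22 and 11 reads (at least 10.7-fold higher), and it overlaps the coding gene *Hmgb1* on the opposite strand and *Mm2pr*. *Gm26772* had 15 and 17 reads and *Gm48485* had 17 and 15 reads (each at least 10.6-fold higher). These 4 genes were low in absolute terms in the treated cells as well, at 11.8 to 31.7 normalized counts per sample.

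The remaining 11 members at 0 in NT cells were *Gm44659*, *Gm44427*, *Gm11528*, *Gm9530*, *4930426I24Rik*, *F730311O21Rik*, *Gm39132*, *Mkln1os*, *4933440M02Rik*, *Gm36356* and *Gm10635*. They had between 4 and 18 reads per Go6983 sample, with bounds from at least 5.26-fold to at least 9.45-fold higher. *Mkln1os* lies opposite to *Mkln1*, the muskelin gene, and shares exon bases with it, so its 10 and 7 reads could come from either strand. *Gm10635* was the least even, with 14 and 4 reads in the Go6983 samples (adjusted p = 0.00295). All 16 genes were called higher, and none lost its call when a library was left out. This says little for them, because leaving out a Go6983 sample left only the 2 NT values of 0, with no spread between them, to estimate the residual.

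The 7 members with no read in Go6983-treated cells were *Gm47761*, *Platr6*, *Gm28268*, *2700016F22Rik*, *4921522P10Rik*, *Gm32468* and *D030040B21Rik*. *Gm47761* (chr10:17318085-17323228) had 0 and 0 reads in Go6983-treated cells, against 24 and 14 in NT cells, at least 12.8-fold lower. *Platr6* (chr10:21830499-21844851, minus strand, 5 exons), one of the pluripotency-associated transcripts named for their expression in ESCs, had 0 and 0 reads in Go6983-treated cells, against 14 and 19 in NT cells, at least 11.1-fold lower. The NT samples of these genes were above the floor, but in absolute terms all 7 were low, with 5 to 24 reads per NT sample. *2700016F22Rik* shares exon bases with the coding gene *Emc1*, so its reads could be those of either gene. The other 5 had bounds from at least 5.36-fold to at least 8.37-fold lower. Without Go6983 replicate 1 or 2, the adjusted p was 0.0533 and 0.0564 for *2700016F22Rik*, and 0.0705 and 0.0734 for *Gm32468*. For *D030040B21Rik* it was 0.0518 without Go6983 replicate 2. Beyond these 23 genes, 9 members were at 0 in exactly 1 sample, and none in 3.

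**Figure D3:**
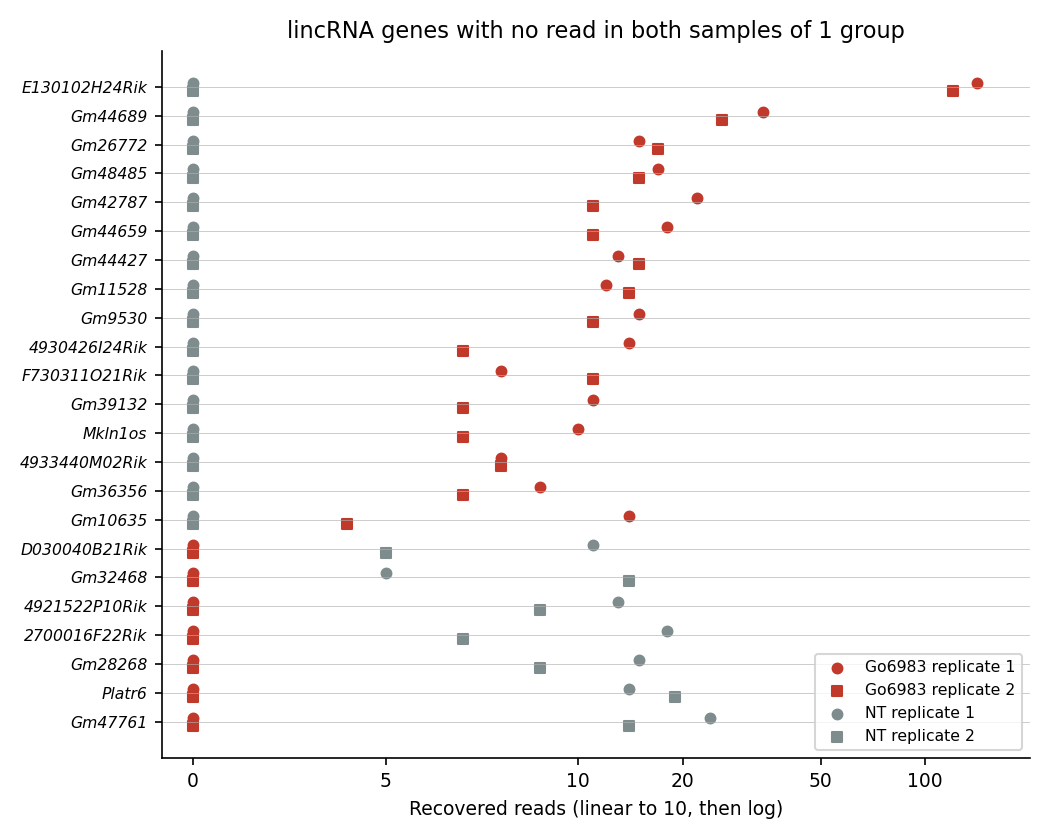
Recovered reads per sample (x axis, linear to 10 and logarithmic beyond) of the 23 lincRNA genes with no read in both samples of 1 group, ordered by log2 fold change; red marks are the Go6983 samples and grey marks the NT samples, with circles for replicate 1 and squares for replicate 2. *E130102H24Rik*, at 141 and 120 reads, stands above all others, whose highest sample has 34 reads.

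*Platr30*, a second pluripotency-associated transcript, was also lower. It had 0 and 5 reads in Go6983-treated cells, against 25 and 12 in NT cells. The groups did not overlap, but the log2 fold change of -2.88 had a standard error of 0.91 (adjusted p = 0.0239), and the adjusted p was 0.128, 0.201 and 0.115 without Go6983 replicate 1, NT replicate 1 or NT replicate 2. Without Go6983 replicate 1, which had no read, the log2 fold change was -1.54. It was -4.57 (adjusted p = 0.0706) with 0.1 added to the counts in place of 1, and -6.24 (adjusted p = 0.113) with 0.01 added, so its call depended on the added value. *Trp53cor1* (lincRNA-p21), which p53 is known to induce in mouse cells, lies 11797 bp from the cell cycle inhibitor gene *Cdkn1a* in divergent orientation. It had 147 and 176 normalized counts in Go6983-treated cells, against 67.6 and 71.5 in NT cells. Both Go6983 samples were higher (log2 fold change 1.20, standard error 0.20, adjusted p = 0.00297, and 0.0559 without Go6983 replicate 2). *Cdkn1a* was not among the listed genes. *Mm2pr*, named for a role in the M2 polarization of macrophages, had 34 and 26 reads in Go6983-treated cells and 9 and 6 in NT cells. The groups were apart (log2 fold change 1.87, adjusted p = 0.0062, and 0.0565 and 0.0535 without Go6983 replicate 1 or 2), and its exons overlap *Hmgb1*, *Gm42787* and *Gm43332*. *BB123696*, a gene of unknown role, had 4 and 4 reads in Go6983-treated cells, against 17 and 23 in NT cells (log2 fold change -2.07, adjusted p = 0.00433), and its call held without any 1 library. Of the pluripotency-associated, imprinted and nuclear lincRNAs on the lists used, *Platr6*, *Platr30*, *Trp53cor1* and *Miat* were listed genes of this type. The others are not analysed here.

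Within 6 lincRNA genes the annotation places at least 1 miRNA gene. miRNAs act by pairing of their seed, bases 2 to 8, with target mRNAs. Mature miRNAs were not measured in these libraries, and the values are those of the host transcripts. RefSeq (GRCm38.p6) held sequences for 4 of the hosts. They are shown 5′ to 3′ with the seed in capitals, to identify which miRNAs the changed hosts carry, first for the hosts that were higher.
miR-101a-3p: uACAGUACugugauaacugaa
miR-155-5p: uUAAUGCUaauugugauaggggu
miR-191-5p: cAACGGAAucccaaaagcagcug
miR-425-5p: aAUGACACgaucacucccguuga
miR-670-5p: aUCCCUGAguguauguggugaa
miR-129-5p: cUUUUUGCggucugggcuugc
None of these 6 miRNAs shared a seed with another. *E130102H24Rik* holds miR-101a in an exon (chr4:101346957-101346977 for the 3p arm, minus strand, as the host), and was the gene at 0 in NT cells described above. miR-101 is known in human cells to target the mRNA of EZH2, the H3K27 methyltransferase. *Mir155hg*, the host of miR-155, a miRNA of activated immune cells, had 19 and 17 reads in Go6983-treated cells and 1 and 6 in NT cells. Its Go6983 samples were alike and above both NT samples (log2 fold change 2.33, standard error 0.65, adjusted p = 0.0160), with an adjusted p of 0.157 and 0.164 without Go6983 replicate 1 or 2 and a log2 fold change of 1.41 without NT replicate 1. *4833445I07Rik*, which holds miR-191 and miR-425, had 36 and 51 reads in Go6983-treated cells and 18 and 22 in NT cells. The groups were close (log2 fold change 1.06, adjusted p = 0.0380). The call was lost with the counts scaled to the sum of listed genes (log2 fold change 0.93, adjusted p = 0.0606) and with 0.01 added in place of 1 (adjusted p = 0.0529), and without each of the 4 libraries the adjusted p was between 0.0964 and 0.224.

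The other hosts were lower with Go6983. *Mir670hg* (chr2:94160636-94264918, minus strand), which holds miR-670 and miR-129-2, had 11 and 2 reads in Go6983-treated cells, against 51 and 39 in NT cells. The Go6983 samples were unequal but far below the NT samples (log2 fold change -2.95, standard error 0.66, adjusted p = 0.00812). Without Go6983 replicate 2, NT replicate 1 or NT replicate 2 the adjusted p was 0.0641, 0.0875 and 0.0724. *Gm27032*, which contains *Mir124a-3*, had 20 and 11 reads in Go6983-treated cells, against 44 and 35 in NT cells. Its groups did not overlap (log2 fold change -1.36, adjusted p = 0.0173), but the call was lost without each of the 4 libraries, at adjusted p-values from 0.0694 to 0.138. *Gm36283*, which contains the gene *Gm25591*, had a log2 fold change of -1.83 (adjusted p = 0.00846, and 0.0714 without Go6983 replicate 2).

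lincRNA genes lay farther from coding genes than the other listed genes did, which the gene type by which they were chosen itself favours. The median distance to the nearest coding gene body was 15314 bp for lincRNA genes. It was 6265 bp for listed coding genes and 4640 bp for all other listed genes. Of the 108 members, 19 overlapped a coding gene body, 14 of them on the opposite strand, and 15 were more than 100 kb from any. A divergent orientation to the nearest coding gene was found for 31 members, and 8 of these were within 1 kb of it. These 8, of which 6 were higher and 2 lower, were *Gm15728* (92 bp from *Rfc5*), *4833445I07Rik* (99 bp from *Ndufaf3*), *C030037D09Rik* (132 bp from *Msi2*), *5930412G12Rik* (151 bp from *Fzd10*), *4930426I24Rik* (194 bp from *Hspa2*), *D030040B21Rik* (510 bp from *Eloc*), *Gm26721* (604 bp from *Adgrl1*) and *F630040K05Rik* (662 bp from *1600014C23Rik*). Over all listed genes, 68.8% were called higher and 29.7% lower. In none of the 8 was the coding partner among the listed genes. Taking only the nearest gene body leaves out *4921522P10Rik*, which is divergent to the listed gene *Efnb2* at 559 bp but nearer to *Arglu1*. Of the other listed genes, only 9.43% had a listed nearest coding gene, so 8 genes say little on either point. Members were spread over 20 chromosomes, with the most, 12, on chromosome 7, where 142 listed genes lay. In 31 members some exon bases belonged to another annotated gene as well, among them *Gm45847*, *Gm41177*, *Gm14133*, *Platr30*, *Trp53cor1* and *2700016F22Rik*.

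For 12 lincRNA genes (11.1%) the nearest coding gene was itself listed, compared with 9.43% of the other listed genes. In 9 of these 12 pairs (75.0%) both genes had the same sign, against 79.7% for the other listed genes. Since most listed genes were higher, 7 of the 9 pairs were higher together. *Tbx3os2* (chr5:119685095-119691218, minus strand) ends 371 bp from the end of *Tbx3*, a T-box transcription factor gene that sustains self-renewal of mESCs. It had 123 and 83.5 normalized counts in Go6983-treated cells, against 39.8 and 34.7 in NT cells. *Tbx3* had 20326 and 21039 normalized counts in Go6983-treated cells, against 9284 and 9599 in NT cells. Both genes were higher in both treated samples, with log2 fold changes of 1.42 (standard error 0.30, adjusted p = 0.00628) for *Tbx3os2* and 1.13 (standard error 0.09, adjusted p = 0.000428) for *Tbx3*. The call of *Tbx3os2* was lost without Go6983 replicate 1, Go6983 replicate 2 or NT replicate 2 (adjusted p = 0.0928, 0.0541 and 0.0557). Its promoter window, shown with each CpG in capitals because the window is 1 of the 5 with TGANTCA, lies at chr5:119691169-119691468 on the minus strand.
Tbx3os2: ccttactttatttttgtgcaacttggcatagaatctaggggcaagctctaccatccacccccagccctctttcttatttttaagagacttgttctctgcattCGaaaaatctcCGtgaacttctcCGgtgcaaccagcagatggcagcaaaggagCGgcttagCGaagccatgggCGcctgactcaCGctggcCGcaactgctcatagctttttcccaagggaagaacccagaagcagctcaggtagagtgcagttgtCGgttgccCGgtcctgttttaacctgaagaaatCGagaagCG

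*Platr6* lies 37333 bp from *Sgk1*, a serum- and glucocorticoid-regulated kinase gene, in divergent orientation. *Sgk1* had 1406 and 1247 normalized counts in Go6983-treated cells, against 3122 and 2743 in NT cells. Both genes of this pair were lower in both treated samples (log2 fold changes of -4.13 for *Platr6* and -1.14 for *Sgk1*). In *Gm12690* and *Foxd3*, a forkhead transcription factor gene of ESCs, 83288 bp apart, both genes were lower too, with log2 fold changes of -1.42 and -1.23. *Foxd3* had 1019 and 1003 normalized counts in Go6983-treated cells and 2534 and 2230 in NT cells. Of the pairs that were higher together, *Gm5907* and *Tdrp* were 11058 bp apart in divergent orientation (1.67 and 1.05), *C030034I22Rik* and *Akain1* 17694 bp apart (1.67 and 3.49), and *2310069B03Rik* and *Sema4f* 30032 bp apart (2.77 and 1.44). *Gm35040* and *Rhcg*, *AI427809* and *Abca1*, and *2610028E06Rik* and *Csf3r* were the others, at 33330 to 102133 bp. *Akain1* itself was at 0 in both NT samples, with 12.1 and 8.56 normalized counts in Go6983-treated cells.

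The other three nearest pairs went in opposite directions. *Gm32468*, at 0 in both Go6983 samples, lies 2588 bp from *Cfap54*, a gene of ciliary axonemes, in divergent orientation. *Cfap54* had 123 and 108 normalized counts in Go6983-treated cells, against 35.8 and 31.7 in NT cells. Thus the lincRNA was lower (log2 fold change -3.26) and the coding gene higher (1.75). *Gm5091* had 193 and 154 normalized counts in Go6983-treated cells, against 51.7 and 64.4 in NT cells. *Dll1*, a Notch ligand gene 119437 bp away, had 611 and 394 in Go6983-treated cells and 2401 and 2244 in NT cells. The log2 fold changes were 1.56 (adjusted p = 0.00191) for *Gm5091* and -2.24 for *Dll1*. The adjusted p of *Gm5091* was 0.0570 without Go6983 replicate 1. *Gm35035* and *Dusp6*, an ERK phosphatase gene 185165 bp away, had log2 fold changes of 1.42 and -1.02. Among the lincRNA genes whose nearest coding gene was listed at over 10 kb, *Gm35040* kept its call without any 1 library. *Platr6* did so too, but without an NT sample its residual rested on the 2 Go6983 values of 0. Without Go6983 replicate 1, the adjusted p-values of *Gm12690*, *Gm5907*, *2310069B03Rik*, *AI427809*, *2610028E06Rik* and *Gm35035* lay between 0.0657 and 0.174, and without Go6983 replicate 2 between 0.0631 and 0.135. The calls of *2610028E06Rik* and *Gm35035* were also lost without NT replicate 1 (0.0717) and NT replicate 2 (0.0840).

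When coding genes on either side within 100 kb were counted, 25 lincRNA genes made 27 pairs with listed coding genes, and 19 pairs (70.4%) had the same sign, against 76.3% of the pairs made by the other listed genes. The closest of these beside *Tbx3os2* was *4921522P10Rik*, at 0 in Go6983-treated cells. It starts 559 bp from *Efnb2*, the ephrin-B2 gene, in divergent orientation. *Efnb2* had 1553 and 1418 normalized counts in Go6983-treated cells and 3268 and 3040 in NT cells. Both were lower, with log2 fold changes of -3.57 for the lincRNA and -1.09 for *Efnb2*, while the coding gene nearest to *4921522P10Rik*, *Arglu1* at 347 bp, was not listed. *9330102E08Rik* lies 40485 bp from *Tead4*, a TEAD transcription factor gene, which had 1249 and 1269 normalized counts in Go6983-treated cells and 404 and 416 in NT cells. Both were higher, at 1.83 and 1.62. *Gm44659* and *Ceacam16*, 6822 bp apart, had log2 fold changes of 3.91 and 1.30. The coding genes nearest to *9330102E08Rik* and *Gm44659*, *Tspan9* at 26110 bp and *Ceacam19* at 4304 bp, were not listed. *Gm10605* shares exon bases with *Tpbgl*, an unlisted coding gene on the opposite strand. Reads of *Gm10605* and *Tpbgl* cannot be told apart because no strand setting is stated. *Gm10605* and *Arrb1*, the beta-arrestin 1 gene, 19165 bp apart, went in opposite directions at 2.86 and -1.28, with an adjusted p of 0.0782 and 0.102 for *Gm10605* without Go6983 replicate 1 or 2. *Gm42743* lies within 100 kb of the histone genes *Hist2h3c1* and *Hist2h3c2*, and *Platr30* only of *Hist2h3c1*, 96778 bp away. These histone genes are near-identical copies, so their values are uncertain. The listed coding gene closest to *Platr30*, *BC107364* at 75308 bp, was higher (1.15), while *Platr30* (-2.88) and *Hist2h3c1* (-1.43) were lower. *Gm42743* overlaps the coding gene *Hist2h2bb* on the same strand and shares exon bases with it. Its reads could therefore be those of *Hist2h2bb*. The call of *Gm42743* was lost without each of the 4 libraries, at adjusted p-values from 0.0535 to 0.114. *Gm12690*, *Gm5091*, *Gm35035*, *Gm42743*, *Gm10605* and the other lincRNA genes with a listed neighbour at over 10 kb were chosen for their place, after the values had been seen.

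**Figure D4:**
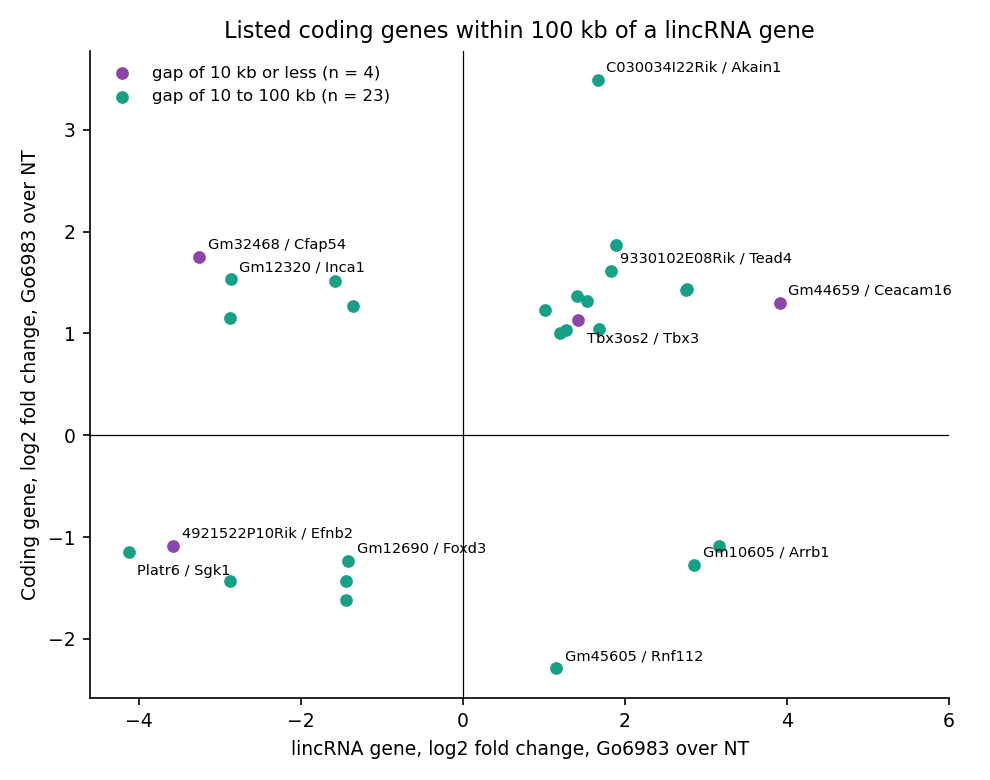
Log2 fold change of Go6983 over NT of lincRNA genes (x axis) and of listed coding genes within 100 kb (y axis), 1 point for each of the 27 pairs; purple points have a gap of 10 kb or less and green points a longer one. In 19 pairs both genes have the same sign, among them *Tbx3os2* with *Tbx3* (1.42 and 1.13), and *Gm32468* with *Cfap54* (-3.26 and 1.75) is 1 of the 8 with opposite signs.

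Members also lay near each other. In all, 6 pairs of lincRNA genes were within 100 kb, and 5 of these had the same sign. Of the pairs that other listed genes made with coding genes within 100 kb, 76.3% had the same sign. Some of the 5 pairs share exon bases, so the same reads could set both signs, and others have a member in common. *Gm47900*, *Gm47903* and *Gm26576* formed a run on chromosome 10, with gaps of 50170 and 28690 bp, and had log2 fold changes of 1.81, 2.10 and 1.15. *Gm14235* and *E130018N17Rik* overlap on the same strand of chromosome 2 (1.30 and 1.16), so their reads cannot be told apart. *Gm11528*, at 0 in NT cells, and *Gm9796*, 67058 bp away, had opposite signs (3.80 and -1.47). The calls of these genes other than *Gm11528* were lost without Go6983 replicate 1 (adjusted p from 0.0937 to 0.218) and without Go6983 replicate 2 (from 0.0792 to 0.164). Where they were lost without NT replicate 1 or NT replicate 2 as well, the adjusted p was between 0.0593 and 0.133.

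The 56 members not singled out by the naming rule comprised 40 that were called higher, 14 that were called lower and the 2 that did not pass. Their log2 fold changes ran between 1.01 and 4.35 for the higher genes and between -1.03 and -3.43 for the lower ones. The largest, chosen after the values had been seen, was that of *Gm20465*, with 40.1 and 30.0 normalized counts in Go6983-treated cells and 0 and 2.04 in NT cells. *Gm40663* was its counterpart among the lower genes, with 4.67 and 0 normalized counts in Go6983-treated cells against 25.9 and 23.5 in NT cells. The adjusted p of *Gm20465* was 0.00145, and 0.0640 and 0.0605 without Go6983 replicate 1 or 2. That of *Gm40663* was 0.0101, and 0.102 and 0.0959 without NT replicate 1 or 2. Across all 108 members, 34 were called in each of the 4 fits that left out a library, 23 of them higher (21.3%) and 11 lower (10.2%). Over all listed genes the shares were 24.7% and 13.3%. Of the 34, 20 were genes at 0 in both samples of a group. No member changed direction in any of these fits, but for the 107 members whose groups did not overlap this was fixed in advance.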

How the data were processed

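Total RNA of 4 samples of 46C mESCs was sequenced (2 Go6983, 2 NT). Bowtie 0.12.2 and mm9 are named in the processing notes of the submitters. Which counter, strand setting, annotation and normalization tool were used is not given in the sources used here. What the authors deposited are log2 values per sample, which fit log2(normalized count + 1), and not the log2 of an FPKM, because 100% of the values came within 0.05 of a whole read number at 1 step per sample. The deposited table also holds group means and, per gene, p-values with their adjusted form and the fold change between groups. These 5 deposited columns were not used.

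The log2 values were fitted as deposited, with limma 3.58.1 in R 4.3.3 (lmFit, eBayes with trend), on all 1577 listed genes, with group as the only term and no filter. The prior had 3.635 degrees of freedom beside 2 residual ones. Benjamini-Hochberg adjustment ran over all 1577. The fit was also run on simulated counts, with the same dispersion for all genes and most genes unchanged. The deposited table holds only changed genes, so that run does not show whether the p-values hold here. The spread between replicates exceeded counting noise: the chi-square per gene was 7.49 between the Go6983 samples and 11.0 between the NT samples over all listed genes with enough reads, and 1.69 and 3.05 over the lincRNA genes among them, so each sample was counted on its own. This does not show whether they were separate cultures. Gene types, coordinates and exons came from GENCODE M21 on GRCm38, matched by gene ID for 1572 of the 1577 genes, and the deposited table holds no coordinates. Level per kb is the mean normalized count over the union of exons. Promoters and miRNAs came from RefSeq (GRCm38.p6). Plots were made in matplotlib 3.10.9.

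Naming followed a rule that took 52 members: where the higher group averaged 50 or more normalized counts, the 8 largest rises and 8 largest falls; the 5 highest per kb; members at 0 in both samples of 1 group; members with a proper symbol, on lists of ESC, imprinted and nuclear lincRNAs, or holding a miRNA; and members with their nearest coding gene listed within 10 kb. The members and the lists were chosen with earlier results of these data known. Other genes were named after their values had been seen. The alternatives were another scaling, pseudocounts of 0.1 and 0.01, filters at 10 and 50 normalized counts, other thresholds, fits without each replicate, a block on the replicate number, limma without trend, limma-voom on the recovered reads, the longest transcript as length, and other definitions of a neighbour.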

Additional observations from a re-analysis of the deposited data

How the results depend on the processing

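Of 108 lincRNA genes, 69 were called higher and 37 lower. The counts were 23 and 14 with a filter at 50 normalized counts (60.5% and 36.8% of the 38 left, against 68.4% and 31.1% of all listed genes left), 27 and 14 at a change of at least 4-fold (25% and 13%, against 13.9% and 7.67%), and 40 and 24 at an adjusted p below 0.01 (37.0% and 22.2%, against 46.8% and 21.1%). With a library left out they ranged from 24 to 57 higher (22.2% to 52.8%) and from 15 to 24 lower (13.9% to 22.2%), while all listed genes ranged from 27.3% to 54.4% higher and from 16.5% to 20% lower. There the lone sample was assumed to vary like the other group, and the low ends belonged to the fits without Go6983 replicate 2. The scaling, pseudocounts, filter at 10, no trend, voom and an unadjusted p with 2-fold gave 60 to 69 higher and 32 to 37 lower. No gene named by the rule changed direction under any alternative run. The groups of these genes did not overlap, so for the pseudocounts and the fits without a library this was fixed in advance. With every library kept, *4833445I07Rik* lost its call with the other scaling and with pseudocount 0.01. *C030034I22Rik* lost its call with the other scaling, both pseudocounts and no trend, and *Platr30* with both pseudocounts. No other gene named by the rule lost its call there.

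With the replicate number as a block, 68 lincRNA genes were called higher and 36 lower, and no call of a named gene was lost. Same-numbered samples shared only a number: the replicate differences in the 2 groups correlated at 0.0450 across 1044 genes.

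Members with a listed coding neighbour were 12 by the nearest gene body, 15 by start sites and 25 within 100 kb. The promoter windows near the GENCODE starts were an alternative chosen after seeing the data. The median level per kb, 13.6, was 15.0 over the longest transcript and 16.2 with a filter at 10 normalized counts. That filter left 15 of the 23 genes with no read in 1 group.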
